A study of Saccharomyces cerevisiae with 13 samples.

Results

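The genes described here carry the names UTP, NOP, NOC, RRP or RPA followed by a number, which yeast geneticists gave to factors that make ribosomes in the nucleolus. The names alone chose them: 63 symbols of the yeast gene table match, and 61 of these genes had a value on all 13 arrays, out of 6140 genes in all. These were 18 UTP, 16 NOP, 3 NOC, 17 RRP and 7 RPA genes. NOP10 had a row without values, and RRP42 was not analysed here.

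Budding yeast of strain W303 in an SSD1-V background, grown in YEPD rich medium, were held with alpha factor, the mating pheromone, then moved into YEPD without it and sampled at 0 min (the arrest itself) and every 10 min to 120 min. Each sample's cDNA carried Cy5 and was hybridised with Cy3-labelled cDNA of an asynchronous W303a culture in YEPD (SSD1 allele not given in the sources used here). Every time point has 1 array and there is no dye swap, so the p-values compare each gene with the scatter of the arrays around a smooth curve in 1 culture and say nothing of the variation between cultures. The values are log ratios per gene, read as log2 ratios with Cy5 on top. Their base and direction (both not given in the sources used here) are assumptions, and the opposite direction would turn every sign and move every peak by 30 min.

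Ribosome assembly begins when RNA polymerase I copies the ribosomal DNA into a long precursor RNA inside the nucleolus. The UTP proteins belong to the small subunit processome. This particle gathers on the growing precursor together with the U3 small nucleolar RNA. It folds and cuts the part that becomes the small subunit. Among the NOP proteins are the core proteins of the small nucleolar particles that modify the precursor (NOP1, NOP56, NOP58), together with large subunit factors. NOC proteins accompany early particles of both subunits, RRP proteins cut and trim the RNA and include much of the exosome, a multi-protein RNA-degrading complex, and RPA proteins are subunits of the polymerase. In budding yeast these genes are known to be co-regulated with growth rate, as part of the ribosome biogenesis regulon. A ratio from a whole culture compares shares of the extracted RNA, so that fewer cells of a type and less RNA per cell cannot be told apart.

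The arrays held between 6178 and 6186 measured rows each, and their means were all within 0.003 of 0. The spread over rows was widest on the 0 min array, at an SD of 0.39, and narrowest on the 100 min array, at 0.24. The arrest and the cycle were visible in marker genes: 7 of 7 pheromone-induced genes stood between 2.61 and 4.53 at 0 min, and 8 of 8 core histone genes were periodic with a mean peak at 29.9 min. MATa-specific genes, which mark the mating type that responds to alpha factor, stood between 0.66 and 3.75 at 0 min, while MATalpha-specific genes stood between -0.29 and 0.73 and meiotic genes between -1.21 and 0.50. Both dyes carry yeast RNA, so that these are ratios between cultures and not levels.

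The assembly genes shared a shallow time course. Their median log2 ratio on the arrays from 0 to 120 min was, in time order, -0.20, -0.32, -0.16, -0.06, -0.07, -0.06, -0.16, -0.28, -0.26, -0.19, -0.25, -0.25 and -0.35. The median of all genes stayed between -0.03 and 0.01 throughout. The genes thus stood highest at 30 to 50 min and had a smaller second crest near 90 min, with their lowest medians at 10 and 120 min.

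**Figure D1:**
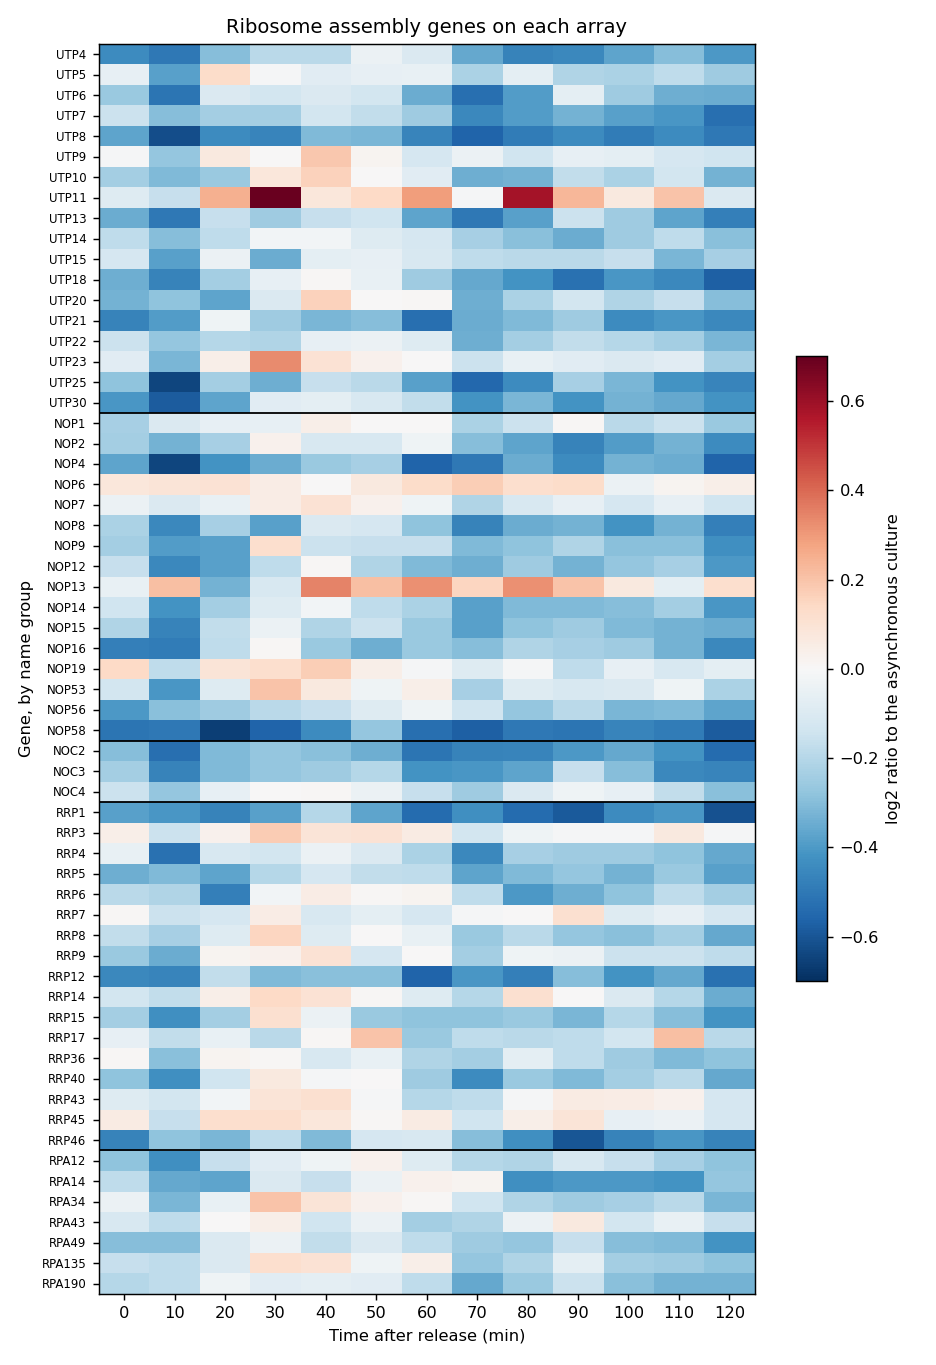
Heat map of the log2 ratio to the asynchronous culture for each of the 61 genes (rows, by name group) on each of the 13 arrays (columns, min after release). The 10 and 120 min columns are blue (below 0) in most rows and the columns from 30 to 50 min are paler; a few rows, among them UTP11, NOP6 and NOP13, stand above 0 on most arrays.

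Most of them moved the same way from array to array. From the arrest to 10 min they first fell: 50 of the 61 genes were lower at 10 min than at 0 min. The median difference was -0.13, and 55.4% of all genes were lower. At 40 min 59 of the 61 genes stood above their 10 min value, with a median difference of 0.26, against 52.8% of all genes. At 70 min 57 of the 61 genes stood below their 50 min value, with a median difference of -0.20, against 56.1% of all genes. The second crest was weaker: 43 of the 61 were higher at 90 min than at 70 min, with a median difference of 0.10, against 50.7% of all genes. At 120 min 52 genes were lower than at 90 min, with a median difference of -0.11, and 48.0% of all genes were. These steps each compare single arrays and carry no test.

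The array with the highest value of the first cycle (10 to 60 min) was the 30, 40 or 50 min array for 49 of the 61 genes, or 80.3%, against 48.9% of all genes. None of the 61 had its first-cycle maximum at 10 min, and 47 had their minimum there, against 1130 and 1642 of the 6137 genes tested. In the second cycle (70 to 120 min) 40 genes, or 65.6%, had their maximum between 90 and 110 min, against 51.1% of all genes. For 24 of the 61 it lay at 90 min, against 1306 of the 6137 genes tested. The correlation of a gene's first cycle with its second, over 6 pairs of arrays that lie 60 min apart, had a median of 0.39 over the assembly genes and of 0.44 over all genes. It was positive in 48 of the 61 and in 4567 of the 6137 genes tested, a near share.

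**Figure D2:**
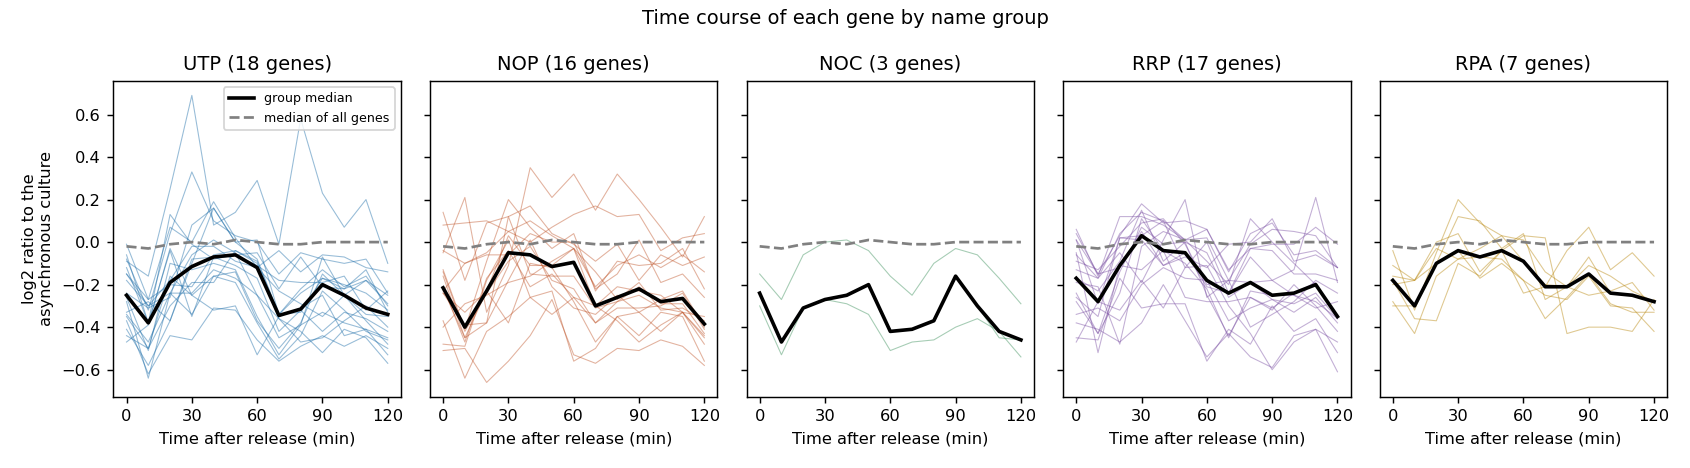
Log2 ratio to the asynchronous culture against time after release for each gene (thin lines), in a panel for each name group, with the group median in black and the median of all genes dashed in grey. The UTP, NOP, RRP and RPA medians are highest between 30 and 50 min and the NOC median at 90 min, where it stands at -0.16; the RRP median, at 0.03 on the 30 min array, is the only group median above 0.

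The 5 name groups traced similar medians. On the 10, 50, 70 and 90 min arrays the UTP median was -0.38, -0.06, -0.345 and -0.20. The RPA median, for the polymerase subunits, was -0.30, -0.04, -0.21 and -0.15 on the same arrays. The correlation of the UTP median with the other group medians over the 13 arrays was 0.94 for RPA, 0.93 for NOP, 0.81 for RRP and 0.67 for NOC. All group medians share the same 13 hybridisations, so these coefficients are a description without a test.

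Periodicity was tested with limma as a cosine of 60 min period beside a straight line in time, with Benjamini-Hochberg adjustment over all 6137 genes measured on at least 10 arrays. At an adjusted p under 0.05, 12 of the 61 genes, or 19.7%, were periodic, against 30.1% of all genes tested. The periodic share of the assembly genes was thus no larger than that of all genes. The periodic genes were UTP6, UTP10, UTP13 and UTP25, NOP4, NOP14 and NOP16, NOC2 and NOC4, and RRP14, RRP40 and RRP43. No RPA gene passed. Where the fit allowed neighbouring arrays to be correlated, at an estimated 0.45, RRP43 alone remained among them, against 13.8% of all genes. The count of 12 was 4 without the 40 min array, 4 without the 70 min array, 6 without the 120 min array and 7 without the 10 or the 110 min array.

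RRP43 encodes a ring subunit of the exosome. Its log2 ratios in time order were -0.09, -0.13, -0.02, 0.09, 0.11, -0.01, -0.20, -0.18, -0.01, 0.06, 0.05, 0.03 and -0.12. It was high at 30 and 40 min and again from 90 to 110 min, and low at 10, 60, 70 and 120 min, so that the rhythm repeated at nearly the same height. The fitted swing, from trough to peak, was 0.27 ± 0.05 on the log2 scale (SE), a 1.20-fold change, with a peak at 36.1 min (limma adjusted p = 0.00615). The adjusted p was 0.0361 with an estimated correlation, the highest over the 21 alternatives in which it was recomputed.

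NOC4 is a small subunit factor that pairs with NOP14. Its values were -0.15, -0.27, -0.06, 0.00, 0.01, -0.04, -0.16, -0.25, -0.10, -0.03, -0.06, -0.17 and -0.29 in time order. They were near 0 at 30 and 40 min and at 90 min, and lowest at 10, 70 and 120 min. The swing was 0.26 ± 0.05 (SE) with a peak at 36.1 min (limma adjusted p = 0.0104; p = 0.0538 with an estimated correlation).

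UTP10, a large scaffold protein of the UtpA subcomplex that binds the earliest part of the precursor, had the widest swing of the periodic assembly genes. Its values were -0.24, -0.31, -0.26, 0.08, 0.16, 0.00, -0.08, -0.34, -0.33, -0.17, -0.22, -0.13 and -0.33. The first-cycle crest at 30 to 50 min stood above the second-cycle crest, in which the best value was -0.13 at 110 min. The swing was 0.39 ± 0.09 (SE) with a peak at 41.7 min (limma adjusted p = 0.0146; p = 0.0549 with an estimated correlation).

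UTP6 and UTP13, both of the UtpB subcomplex, had swings of 0.35 ± 0.09 and 0.31 ± 0.07 and peaks at 37.7 and 37.5 min, with limma adjusted p of 0.0244 and 0.0185. Of the 4 UtpB genes among the members these 2 passed, and of the 6 UtpA genes UTP10 alone passed, against 30.1% of all genes tested. Both counts were 0 with an estimated correlation, and the subcomplexes were not tested against each other. RRP14, which works in both subunit pathways, peaked at 32.1 min with a swing of 0.30 ± 0.07 (adjusted p = 0.0189). RRP40, an RNA-binding cap subunit of the exosome, peaked at 39.8 min with a swing of 0.35 ± 0.09 (adjusted p = 0.0268). With an estimated correlation the adjusted p was 0.139 for UTP6, 0.104 for UTP13, 0.0742 for RRP14 and 0.103 for RRP40.

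NOP14, the partner of NOC4, swung by 0.26 ± 0.07 and peaked at 41.8 min (limma adjusted p = 0.0388). NOP4, an RNA-binding large subunit factor, had 0.27 ± 0.08 at 40.1 min (adjusted p = 0.0443). NOP16, another large subunit factor, peaked earlier, at 29.9 min, with a swing of 0.28 ± 0.08 (adjusted p = 0.038); on the 10, 30 and 40 min arrays it had -0.49, 0.01 and -0.26. UTP25, a helicase-like processome protein, had 0.31 ± 0.09 at 40.2 min (adjusted p = 0.0464). With an estimated correlation the adjusted p was 0.127 for NOP14, 0.147 for NOP4, 0.122 for NOP16 and 0.194 for UTP25.

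The 3 NOC genes lay closest together in time. NOC2, a transport factor of the large subunit, swung by 0.20 ± 0.06 and peaked at 38.4 min (limma adjusted p = 0.0477; p = 0.169 with an estimated correlation). NOC3, its large subunit partner, had a like fitted swing, 0.20 ± 0.07, with its fitted peak at 37.4 min, and did not pass (adjusted p = 0.0946). Their values at 30 and 70 min were -0.27 and -0.47 for NOC2 and -0.27 and -0.41 for NOC3.

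None of the 7 RNA polymerase I genes passed, against 30.1% of all genes tested. At an unadjusted p under 0.05 none passed either, against 27 of the 61 assembly genes and 2631 of the 6137 genes tested. Their swings ran between 0.16 and 0.23, with adjusted p between 0.124 for RPA43 and 0.424 for RPA14 (limma). RPA190, the largest catalytic subunit, had its fitted peak at 36.0 min with a fitted swing of 0.16 ± 0.06. For RPA135, the other large catalytic subunit, the values were 38.6 min and 0.22 ± 0.09, and for RPA12 39.5 min and 0.23 ± 0.09. RPA34 and RPA49, which form a heterodimer on the enzyme, had fitted peaks at 41.4 and 33.6 min with swings of 0.23 ± 0.11 and 0.17 ± 0.07. The stalk subunits RPA43 and RPA14 had fitted peaks at 31.3 and 55.5 min with swings of 0.18 ± 0.07 and 0.19 ± 0.12. The median RPA swing of 0.19 lay near the median over all assembly genes, 0.20, and over all genes tested, 0.21.

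**Figure D3:**
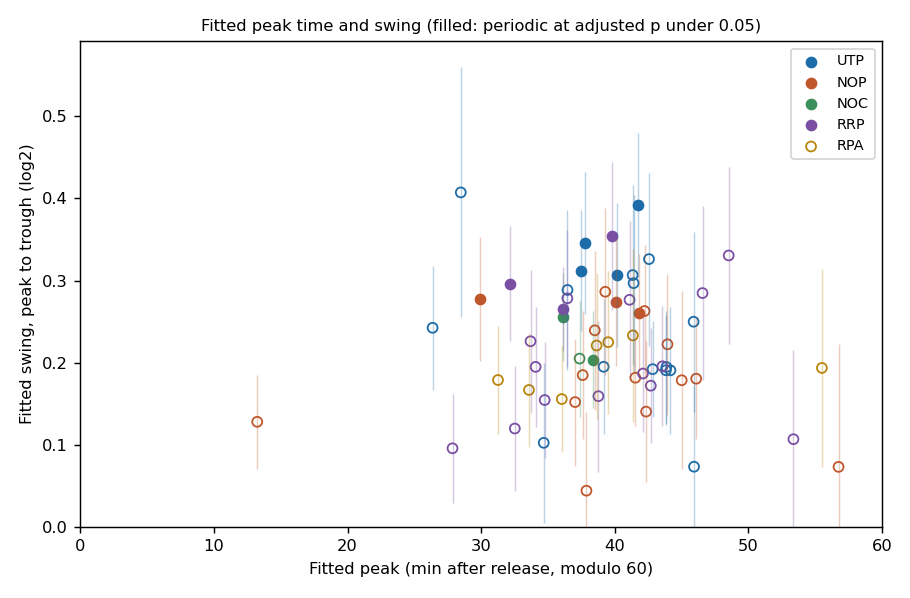
Fitted peak time (min after release, modulo 60) against fitted swing (log2, peak to trough, bars are SE) for the 61 genes, coloured by name group, with filled points for genes periodic at an adjusted p under 0.05. Most points lie between 30 and 50 min and between 0.1 and 0.4; the 12 filled points lie between 29.9 and 41.8 min.

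The fitted phases were narrow, whether or not a gene passed. The fitted peak lay between 30 and 50 min for 53 of the 61 genes, or 86.9%, against 40.2% of all genes tested. The circular mean was 39.6 min with a circular SD of 6.4 min over the 61 genes. By group it was 40.0 ± 5.3 min for UTP, 40.9 ± 7.5 min for NOP, 37.3 ± 0.93 min for NOC, 38.8 ± 6.5 min for RRP and 38.4 ± 7.1 min for RPA (circular SD over genes). These means lay within 4 min of each other, less than the spread over genes in every group but NOC. The genes share the same arrays and are not independent, so no test was made between the groups.

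Outside that window lay NOP16 at 29.9 min, UTP11 at 28.5 min, RRP7 at 27.9 min, UTP21 at 26.4 min, NOP6 at 13.2 min, RRP46 at 53.4 min, RPA14 at 55.5 min and NOP13 at 56.7 min. Of these only NOP16 was periodic. UTP11, a processome protein, had the widest fitted swing of all 61, 0.41 ± 0.15, and still did not pass (limma adjusted p = 0.129). Its values were -0.09, -0.16, 0.25, 0.69, 0.08, 0.14, 0.29, -0.01, 0.58, 0.23, 0.07, 0.20 and -0.10 in time order. The single arrays at 30 and 80 min stood far above their neighbours, and they lie 50 min apart.

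By group the median swing was 0.27 for UTP, 0.18 for NOP, 0.20 for NOC, 0.20 for RRP and 0.19 for RPA. The UTP median was the only one above that of all genes, 0.21. By role, 4 of 16 large subunit factors, 3 of 19 processome and small subunit factors outside UtpA and UtpB, 2 of 6 exosome subunits and 0 of 3 snoRNP core proteins were periodic, against 30.1% of all genes tested. These counts were 0, 0, 1 and 0 with an estimated correlation. The snoRNP core genes NOP1, NOP56 and NOP58 had fitted swings of 0.15 ± 0.08, 0.04 ± 0.10 and 0.18 ± 0.07, and NOP1 encodes the methyltransferase of the particle.

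Beside the rhythm, the linear term of most assembly genes was negative. This term, scaled to the 120 min between the first and the last array, had a median of -0.15 over the 61 genes, against 0.002 over all genes tested. It was negative for 56 of 61 genes and for 3030 of the 6137 genes tested. By group the median was -0.15 for UTP, -0.14 for NOP, -0.13 for NOC, -0.19 for RRP and -0.18 for RPA, and the sign was negative in 17 of 18, 13 of 16, 3 of 3, 16 of 17 and 7 of 7 genes. The 5 positive terms were those of UTP11, NOP6, NOP13, NOP16 and RRP7, between 0.0055 and 0.13.

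Single genes rarely passed. UTP7 alone fell by the test, and 1.17% of all genes tested did; no assembly gene rose, against 1.66% of all genes. At an unadjusted p under 0.05, 19 of the 61 terms were negative and 0 were positive, against 652 and 645 of the 6137 genes tested. With an estimated correlation no assembly gene passed in either direction, and 0.0652% of all genes fell. The count that fell was 3 without the 0 min or the 10 min array and 0 without the 120 min array.

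UTP7 is a WD-repeat protein of the processome. Its values were -0.15, -0.30, -0.24, -0.24, -0.13, -0.17, -0.25, -0.45, -0.39, -0.33, -0.38, -0.41 and -0.53 in time order. Every array from 70 min on lay below every array before it. The linear term was -0.36 ± 0.06 (SE, limma adjusted p = 0.0156), with an adjusted p of 0.353 with an estimated correlation and 0.054 without the 120 min array.

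UTP18, a UtpB protein that recruits the exosome, had the most negative term, -0.39 ± 0.12, but did not pass (adjusted p = 0.0909). Its values were -0.52, -0.41 and -0.45 on the 90, 100 and 110 min arrays, against -0.06, 0.01 and -0.05 on those of 30, 40 and 50 min. The other terms named by the rule, none of which passed, were -0.33 ± 0.12 for NOP2, a methyltransferase of large subunit RNA (adjusted p = 0.134), -0.24 ± 0.08 for NOP14 (0.103), -0.17 ± 0.07 for NOP7, which works with ERB1 in large subunit assembly (0.158), -0.24 ± 0.08 for RRP1 (0.112), -0.29 ± 0.10 for RRP8 (0.137) and -0.25 ± 0.09 for RRP36 (0.147). Among the polymerase genes RPA190 had -0.26 ± 0.08 (0.0802), RPA34 -0.33 ± 0.12 (0.128) and RPA135 -0.26 ± 0.10 (0.157).

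**Figure D4:**
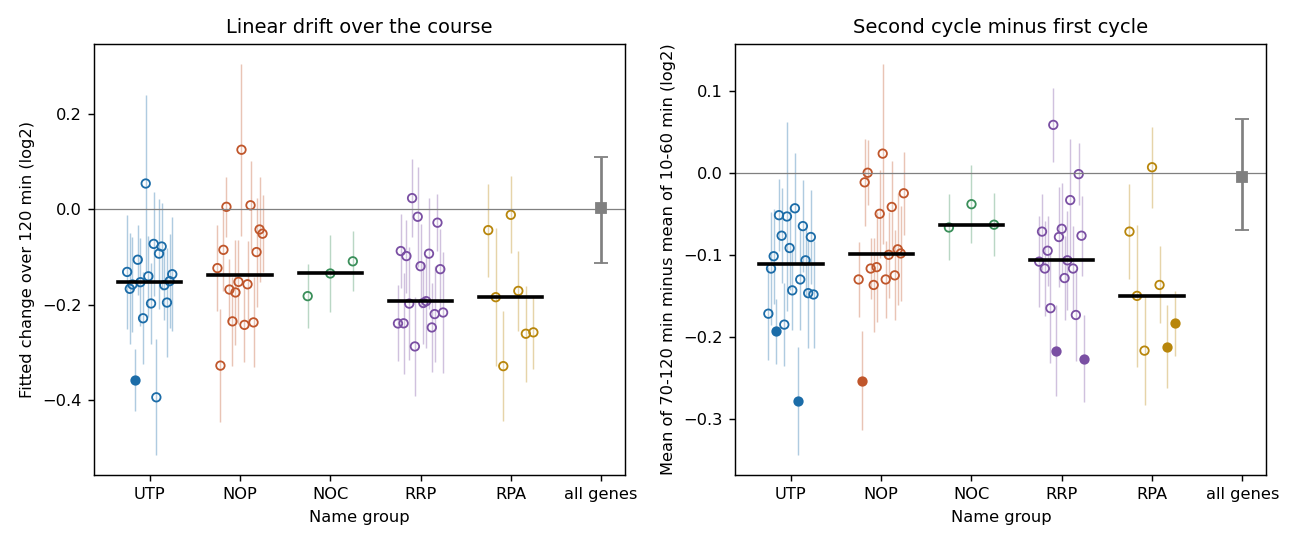
Linear term over the 120 min course (left panel) and second-cycle mean minus first-cycle mean (right panel) on the log2 scale, a point for each gene by name group, with all genes tested at the right of each panel. Most points of every name group lie below 0; the all-gene medians are 0.002 and -0.005.

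A direct comparison of the cycles, the mean of 70 to 120 min minus the mean of 10 to 60 min, gave the same sign with more calls. The difference was negative for 57 of 61 genes, with a median of -0.11, against 3163 of 6137 genes and -0.005. The median second-cycle and first-cycle means were -0.27 and -0.13 over all 61 genes, -0.29 and -0.17 for UTP, -0.30 and -0.18 for NOP, -0.36 and -0.32 for NOC, -0.27 and -0.105 for RRP, and -0.22 and -0.10 for RPA. At an adjusted p under 0.05 (limma), 7 of the 61 were lower in the second cycle, against 2.49% of all genes tested, and 0 were higher, against 2.75%. This comparison counts each cycle as 6 arrays and takes neighbouring arrays as independent.

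The 7 were UTP7, UTP18, NOP2, RRP8, RRP46, RPA135 and RPA190. UTP18 differed by -0.28 ± 0.07 (adjusted p = 0.0331), NOP2 by -0.25 ± 0.06 (0.0337), RRP46, an exosome ring subunit, by -0.23 ± 0.05 (0.0319) and RRP8 by -0.22 ± 0.06 (0.0415). UTP7 differed by -0.19 ± 0.04 (0.0197).

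The large polymerase subunits were both among the 7. RPA190 had -0.36, -0.26, -0.15, -0.29, -0.33 and -0.33 in the second cycle, against -0.18, -0.03, -0.08, -0.07, -0.08 and -0.18 in the first. RPA135 had -0.27, -0.21, -0.07, -0.24, -0.25 and -0.28 in the second cycle, against -0.18, -0.10, 0.12, 0.10, -0.03 and 0.04 in the first. The ranges of both genes overlapped between cycles. The differences were -0.18 ± 0.04 for RPA190 (limma adjusted p = 0.0229) and -0.21 ± 0.05 for RPA135 (adjusted p = 0.0331). The RPA group had the most negative median difference, -0.15, and NOC the least, -0.06; the differences between groups were not tested.

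At 0 min, in the pheromone arrest, the assembly genes stood below the asynchronous culture. The median log2 ratio was -0.20 over the 61 genes, against -0.02 over all genes, and 55 of the 61 were below 0, or 90.2%, against 52.5% of all genes. The median was -0.25 for UTP, -0.215 for NOP, -0.24 for NOC, -0.17 for RRP and -0.18 for RPA. The lowest was NOP58, a snoRNP core protein, at -0.51, and the highest was NOP19, a small subunit factor, at 0.14.

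Whether the cycle accounts for this level was not tested. With 1 array at 0 min, only a large departure from a fitted curve can be called. The 0 min value was set against the curve of the 12 later arrays, its linear term included, extended to 0 min. The departure had a median of -0.05, with 39 genes below the curve and 22 above it. By limma, 0 of the 61 genes departed in either direction at an adjusted p under 0.05, against 2.88% of all genes higher and 1.94% lower. At an unadjusted p under 0.05, 3 were lower and 0 higher, against 556 and 613 of the 6137 genes tested. Allowing for an estimated correlation, 0 of the 61 passed in either direction, against 1.84% of all genes higher and 1.39% lower. Without the 10 min array 3 of the 61 genes were lower at 0 min, where 751 of the 6137 genes tested departed in either direction. Leaving out the 30 min array gave 1 such assembly gene. The count over all genes ran from 174 to 751 with single arrays left out. From the mean over 60 and 120 min, which mark the same point of the fitted cycle, the 0 min value differed by a median of 0.055 and all genes by -0.01, the opposite sign to the departure from the curve.

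**Figure D5:**
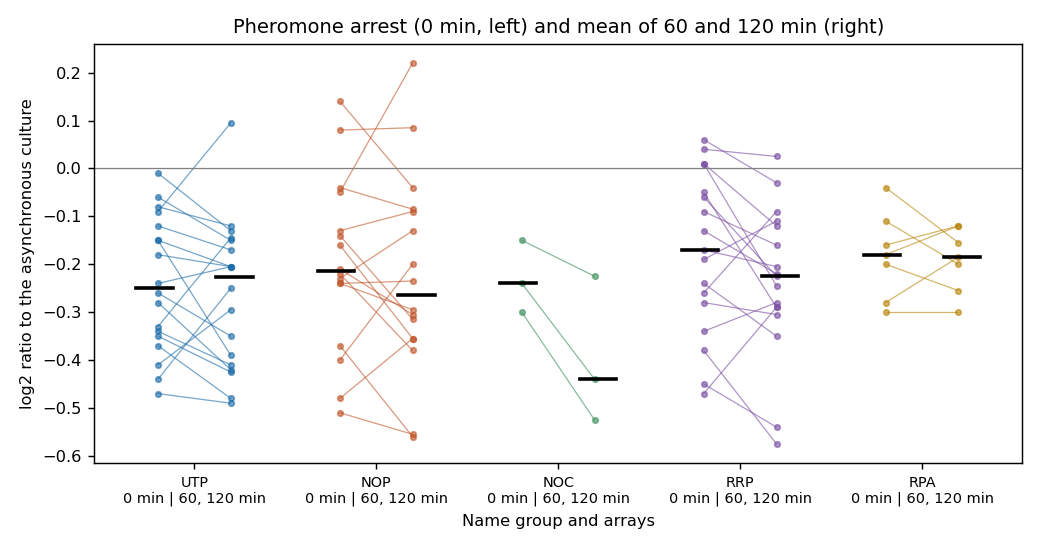
Log2 ratio to the asynchronous culture at 0 min (left column of each pair) and as the mean of the 60 and 120 min arrays (right column), a point for each gene by name group. Each of the 3 NOC genes stands higher at 0 min than at 60 and 120 min, which holds for every gene of no other group; the columns of each pair overlap.

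RRP46 came nearest to the threshold. It stood at -0.47 at 0 min and at -0.28, -0.32, -0.18, -0.31, -0.12, -0.11, -0.30, -0.43, -0.60, -0.47, -0.41 and -0.47 from 10 to 120 min. The 0 min array was as low as the 100 and 120 min arrays and lower than every first-cycle array. The departure from the curve was -0.47 ± 0.12 (limma adjusted p = 0.05003, just above the threshold; p = 0.16 with an estimated correlation).

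The other departures named by the rule were smaller. UTP4, of UtpA, departed by -0.35 ± 0.14 (limma adjusted p = 0.198), NOP56, a snoRNP core protein, by -0.30 ± 0.13 (0.236), UTP18 by -0.29 (0.335), UTP20, a very large processome protein, by -0.28 (0.311) and RRP6, the nuclear catalytic exosome subunit, by -0.27 (0.36). NOP2 departed by -0.26 (0.39), NOP1 by -0.23 (0.279) and RRP7, a small subunit factor, by 0.20 ± 0.10 (0.309). In the RPA group RPA14 departed by -0.20 (0.638), RPA135 by -0.19 (0.48) and RPA49 by -0.16 (0.487).

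The group medians of the departure were -0.04 for UTP, -0.02 for NOP, 0.12 for NOC, -0.06 for RRP and -0.13 for RPA. Without the 10 min array they were -0.17, -0.10, 0.06, -0.10 and -0.28, and with an estimated correlation the NOC median was 0.18 and the RPA median -0.02. NOC3, NOC2 and NOC4 departed by 0.16, 0.12 and 0.02, with adjusted p of 0.465, 0.516 and 0.935 (limma). At 0 min the NOC median was -0.24, against -0.44 for the mean of 60 and 120 min. The RPA median was -0.18 at 0 min, against -0.185 at 60 and 120 min. No difference between the groups was tested.

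Over the 12 arrays after release the assembly genes were mostly lower in the synchronized culture than in the asynchronous one. The mean log2 ratio over 10 to 120 min had a median of -0.20, and 50 of the 61 genes were lower at an adjusted p under 0.05 (limma), against 35.6% of all genes tested. Only UTP11 and NOP6 were higher, and 35.9% of all genes were. With an estimated correlation 41 were lower, against 23.6% of all genes, and 0 higher, against 22.4%. This ratio sets different cultures side by side on arrays of 1 dye orientation, so strain, growth state and dye bias of a spot cannot be told apart in it.

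All 7 RPA and all 3 NOC genes were lower, as were 15 of 18 UTP, 12 of 16 NOP and 13 of 17 RRP genes. The fit with an estimated correlation gave 4 RPA, 3 NOC, 14 UTP, 10 NOP and 10 RRP genes as lower. The medians were -0.16 for RPA, -0.34 for NOC, -0.23 for UTP, -0.25 for NOP and -0.16 for RRP. NOP58 was lowest, at -0.51 ± 0.03 (SE, limma adjusted p = 5.12e-09). It had -0.66 on the 20 min array and -0.27 on the 50 min array, and lay between -0.58 and -0.44 on the others. UTP8, a UtpA protein, stood at -0.46 ± 0.02 and RRP1 at -0.45 ± 0.02. At the other end UTP11 stood at 0.19 ± 0.06 (adjusted p = 0.0104), NOP13, a nucleolar RNA-binding protein, at 0.12 ± 0.05 (0.0644) and NOP6, a small subunit factor, at 0.07 ± 0.02 (0.00539). RRP43, RRP45 and RRP3 stood at -0.03, 0.00 and 0.02 and did not pass.

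General stress genes, a list of 12 known to move with growth rate in yeast, ran the other way over the same arrays. Of these, 8 were higher in the synchronized culture and 0 lower over 10 to 120 min, against 35.9% and 35.6% of all genes tested, and the 12 stood between 0.04 and 1.03 at 0 min. Their part in the level of the assembly genes was not tested.

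The assembly genes varied together. Over the 13 arrays the correlation between pairs of them had a median of 0.53 (quartiles 0.31 and 0.69, 1830 pairs), against 0.003 between all pairs of genes. It was 0.59 within UTP, 0.44 within NOP, 0.81 within NOC, 0.46 within RRP and 0.52 within RPA, and 0.58 between UTP and RPA genes. All pairs share the same hybridisations and time points, so the values describe the data and carry no test.

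UTP18 followed the median of the other assembly genes most closely, at r = 0.91, then RPA34 at 0.90 and NOP7 and RPA135 at 0.89. NOP6, NOP13 and RRP7 followed it least, at -0.15, -0.06 and 0.18. NOP13 had -0.33 on the 20 min array and 0.35 on the 40 min array, and was not periodic (fitted swing 0.07 ± 0.15, limma adjusted p = 0.916). NOP6 stayed between -0.04 and 0.17 on all arrays. These 3 stood out after their values were seen.

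Some assembly genes are neighbours on the chromosome by the order of the RefSeq table. RRP15 and NOC4 on chromosome XVI correlated at 0.74 over the arrays, and RPA43 and RPA190 on chromosome XV at 0.45. UTP9 and the large subunit gene RIX1 on chromosome VIII correlated at 0.86, while NOP56 and the assembly gene PWP1 on chromosome XII correlated at -0.12. Overlap in signal between neighbours cannot be judged without probe sequences, which were not used here.

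Other genes of the pathway, listed by role, were set beside the named groups. Of 40 further small subunit genes 16 were periodic, of 44 large subunit genes 18, of 11 exosome and cofactor genes 5, of 16 other RNA polymerase I genes 7 and of 9 regulators 7, against 30.1% of all genes tested. With an estimated correlation the counts were 7, 8, 0, 2 and 3, against 13.8% of all genes. The fitted peak lay between 30 and 50 min for 36, 39, 8, 12 and 7 of them, against 40.2% of all genes.

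RRN3 is the initiation factor that brings RNA polymerase I to the promoter. Its values were -0.06, -0.23, 0.12, 0.32, 0.33, 0.12, -0.11, -0.34, -0.09, 0.06, 0.05, -0.13 and -0.26. It was highest at 30 and 40 min and again at 90 and 100 min, and low at 10, 70 and 120 min. The swing was 0.52 ± 0.07 with a peak at 37.3 min (limma adjusted p = 0.000707), and RRN9, of the upstream activating factor, had 0.47 ± 0.07 at 33.9 min (adjusted p = 0.00211).

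Both kept an adjusted p under 0.05 with an estimated correlation, 0.00502 for RRN3 and 0.0154 for RRN9. The helicase gene DBP8 and FAF1, both of the small subunit, swung by 0.49 ± 0.07 and 0.52 ± 0.08, and the large subunit genes ERB1 and SDA1 by 0.38 ± 0.06 and 0.32 ± 0.06 (limma adjusted p of 0.000705, 0.00122, 0.00243 and 0.00578). FHL1, a transcription factor of ribosomal protein genes, swung by 0.53 ± 0.08 with a peak at 36.0 min, and SCH9, a kinase that promotes ribosome production, by 0.39 ± 0.08 at 44.5 min (adjusted p of 0.00162 and 0.00617).

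The linear term had a median of -0.20 in the further small subunit genes, -0.18 in the large subunit genes, -0.08 in the exosome list, -0.02 in the other polymerase genes and -0.10 in the regulators. RCL1, a processome protein, fell by the test, with a term of -0.42 ± 0.08 (limma adjusted p = 0.0206), and so did AIR1, of the exosome's polyadenylation cofactor, with -0.63 ± 0.13 (adjusted p = 0.0306). None of the others passed, and both were lost with an estimated correlation (adjusted p of 0.416 and 0.353). At 0 min REA1, an ATPase that remodels large subunit particles, lay below its curve by -0.50 ± 0.12 (adjusted p = 0.0302), and RRN11, of the polymerase's core factor, above it by 0.63 ± 0.12 (adjusted p = 0.00833). With an estimated correlation RRN11 passed (p = 0.0178) and REA1 did not (p = 0.0896).

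Over 10 to 120 min 32 of the 40 small subunit genes, 40 of the 44 large subunit genes, 6 of the exosome list, 6 of the polymerase list and 6 of the regulators were lower than in the asynchronous culture, and 4, 0, 2, 3 and 1 were higher, against 35.6% of all genes lower and 35.9% higher. The counts with an estimated correlation were 28, 33, 4, 4 and 4 lower and 0, 0, 2, 1 and 0 higher. NSR1, the yeast nucleolin, was lowest, at -0.76 ± 0.03, and PWP2, the UtpB protein whose name the rule does not match, stood at -0.47 ± 0.03. PWP2 swung by 0.26 ± 0.07 with its peak at 37.1 min (limma adjusted p = 0.0468; p = 0.163 with an estimated correlation), beside 37.7 and 37.5 min for its partners UTP6 and UTP13.

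The genes of the ribosome's own proteins were also mostly low but had another course, which was not tested against that of the assembly genes. Among 132 cytosolic ribosomal protein genes (RPL and RPS) 3 were periodic, or 2.27%, against 30.1% of all genes tested, and 0 were with an estimated correlation. A fitted peak between 30 and 50 min was found in 22 of them, against 40.2% of all genes. Their median log2 ratio was, in time order, -0.24, -0.22, -0.16, -0.15, -0.23, -0.06, -0.025, -0.06, -0.10, -0.08, -0.11, -0.13 and -0.085. They were thus low on the first 5 arrays and higher from 50 min on, with no second crest. The linear term had a median of 0.15 and was positive in 123 of the 132, the opposite sign to that of the assembly genes, and 6 passed as higher by limma, against 1.66% of all genes. None of the 6 passed with an estimated correlation (0 of 132). At 0 min 126 of the 132, or 95.5%, were below 0, against 90.2% of the assembly genes and 52.5% of all genes. Over 10 to 120 min 86 were lower than in the asynchronous culture and 11 higher, against 35.6% and 35.9% of all genes tested. With an estimated correlation 63 were lower and 2 higher, against 23.6% and 22.4% of all genes. Near-identical copies among the ribosomal protein genes may share signal, so these 132 are not independent measurements.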

How the data were processed

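Total RNA of 13 samples was measured on two-colour arrays. The log2 ratios were used as the authors deposited them, already centred; log base, direction, normalization and scanner (not given in the sources used here) are unknown, and Cy5 over Cy3 follows the dyes per the labels. Of 6295 rows, 108 were empty; 5768 matched a RefSeq locus tag (R64) and 49 a synonym, 458 kept their reading frame name and 20 had no readable name. Rows of 27 genes were averaged. All tests ran across 6137 genes with values on at least 10 arrays.

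Models were fitted with limma 3.58.1 (R 4.3.3): intercept, linear time and a 60 min cosine and sine for periodicity and drift, an added 0 min indicator for the arrest, and the 12 later arrays for mean level. The periodicity, drift and 0 min tests were checked on simulated arrays with independent noise. That check does not cover p-values where neighbouring arrays are correlated. Adjusted p-values are Benjamini-Hochberg over all genes, at a threshold of 0.05. The estimated correlation between neighbouring arrays came from a first-order autoregressive model (0.45 for all 13 arrays, 0.43 for the other fits). Circular means used every fitted peak. Plots used matplotlib 3.10.9 (Python 3.11.15).

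Names alone picked the members, but the name rule and the lists were set with earlier results of these data known, so they are no independent evidence. Named genes were, per group, the 3 of smallest periodicity p, the 3 of smallest drift p, the 3 with the largest 0 min departure, the 3 highest and lowest mean levels, all NOC and RPA genes, and 2 per pathway list and test; genes counted or singled out beyond these were chosen after their values were seen. The pathway lists came from general knowledge of yeast genes. Promoter motifs were not analysed here.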

Additional observations from a re-analysis of the deposited data

How the results depend on the processing

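Each time point has 1 array, so all results rest on the smoothness of 1 culture, and signal over background is not known here. No paired analysis was possible because each time point has 1 array and the samples carry no replicate number. The opposite ratio direction was not recomputed, since it only turns signs and shifts peaks by 30 min; the cause of the changes below was not tested.

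The count of 12 periodic assembly genes became 1 with an estimated correlation, 6 without the linear term and 4 with a 55 min period, and ran between 4 and 13 when single arrays were left out. The 1 gene that fell over the course became 0 with an estimated correlation, 0 without the cosine and sine, 2 with a 65 min period, 9 after quantile normalization and 7 as the difference between cycles, and 0 to 3 with single arrays left out. No assembly gene rose under any of these.

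The 0 genes lower at 0 min became 1 with median centring, with genes measured on all arrays and with a 65 min period, and 0 to 3 with single arrays left out (3 without the 10 min array). The median 0 min departure of -0.05 turned to 0.055 against the mean of 60 and 120 min and to 0.0286 with an estimated correlation, and ran from -0.112 to 0.0087 (without the 60 min array). By group it turned to 0.0347 for NOP, 0.0181 for RRP and 0.0485 for UTP with an estimated correlation, to 0.0143 for UTP and 0.0150 for NOP without the 60 min array, and to 0.0035 for NOP without the 100 min array, with lowest values of -0.1700 for UTP and -0.1047 for NOP without the 10 min array. With single arrays left out it ran from -0.28 to -0.0999 for RPA, -0.099 to -0.0238 for RRP and 0.0569 to 0.1374 for NOC. The 2 genes with a higher mean level became 0 with an estimated correlation and 2 or 3 with single arrays left out; the 50 with a lower one became 41 with an estimated correlation and 46 to 51 with single arrays left out, and lay between 47 and 52 under the other settings.

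With single arrays left out the median drift ran from -0.197 to -0.133, the median mean level from -0.215 to -0.186 and the median swing from 0.182 to 0.225. Over all genes the periodic count of 1847 became 848 with an estimated correlation, 950 at 55 min and 1187 without the 40 min array. The drift count of 174 became 4, 40 without cosine and sine, 71 at 55 min, 301 at 65 min, 407 after quantile normalization and 322 between cycles, and 68 to 232 with arrays left out. The 0 min count of 296 became 168 at 55 min and 193 after quantile normalization. It ran from 174 (without the 50 min array) to 751 (without the 10 min array) with arrays left out. The mean level count of 4386 became 2824 with an estimated correlation.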
